A study of Mus musculus with 6 samples.

Results

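The 38 genes described here encode the proteins that bring long-chain fatty acids into a cardiomyocyte, activate them, carry them into mitochondria, oxidize them and release them from storage. They were taken by gene symbol from a list of the pathway's genes whose rule uses no measured value, though the list was drawn up with earlier results of these data known, and all 38 were found among the 26332 genes with values. Each was tested: genes had to reach 10 normalized counts in 3 or more libraries, as 14584 did. A normalized count is the number of reads assigned to a gene, divided by a size factor of its library.

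The RNA came from nuclei of mouse atria at 8 to 12 weeks of age. Both atria of an animal were combined, and nuclei carrying PCM1, a protein that gathers around cardiomyocyte nuclei, were sorted by flow cytometry. Of the 6 animals, 1 library each, 3 were controls and 3 were Prrx1(R1A)-/-, homozygous for the R1A allele, and the series concerns a noncoding region that regulates Prrx1. The labels name the control genotype only as control (the column headers call it wt), and because the atria were combined, left and right cannot be separated.

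The heart takes most of its energy from fatty acids. Fatty acids cross the membrane with the help of Cd36 and fatty acid transport proteins, are bound to coenzyme A, and are passed to carnitine by CPT1 so that they can enter mitochondria. Malonyl-CoA, made by acetyl-CoA carboxylases and removed by malonyl-CoA decarboxylase, inhibits CPT1, and inside the mitochondrion each turn of beta-oxidation consists of a dehydrogenation, a hydration, a further dehydrogenation and a thiolytic cleavage.

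The libraries held 10580961 to 14658584 reads, of which ribosomal RNA took 12.0% to 46.5%, with the highest share in control replicate 1. The 38 genes had 6 to 3154 reads per library. Prrx1 itself had 415.2, 334.8 and 282.1 normalized counts in control replicates 1 to 3 and 200.8, 194.4 and 182.9 in the Prrx1(R1A)-/- replicates (log2 fold change −0.82 ± 0.25, adjusted p = 0.27 by limma over all genes). The Prrx1 value of control replicate 3 is the 1 value of 108818 above 0 that is not a whole number of reads, at 380.43 reads. Control replicate 1 stood apart: it was the lowest of the 6 libraries for 23 of the 38 genes (60.5%), against 22.6% of all genes tested. Of 12 cardiomyocyte markers, 11 had a higher level in Prrx1(R1A)-/- nuclei, with a summed normalized count of 302303 to 584110 in controls and 809818 to 1508969 in Prrx1(R1A)-/- libraries. Most of that sum was Ttn, at 217140 to 443906 in controls and 581431 to 1235387 in Prrx1(R1A)-/- libraries. The groups overlapped for Actc1, Myl7, Myl4, Nppa, Pln and Sln, and the other 6 markers were higher without overlap (8.89% of all genes were). All 9 fibroblast markers had a lower mean (sums of 44571 to 74604 against 31599 to 36032), as did all 10 immune markers (5961 to 16918 against 5716 to 8839). The groups did not overlap for 7 of the fibroblast and 5 of the immune markers (8.36% of all genes were lower without overlap). They overlapped for Pdgfra, Tcf21, Ptprc, Cd68, Csf1r, C1qa and Cd74. For Csf1r, control replicates 2 and 3 (1476.2 and 1312.5) lay below each Prrx1(R1A)-/- library (1530.8 to 1607.0). Dcn, a defining fibroblast gene, was at 2610 or more in every library. The endothelial sum was 20978 to 24149 against 18376 to 23125, smooth muscle and pericyte 1766 to 3147 against 1821 to 2678, epicardial 4446 to 8953 against 5918 to 8118, and Schwann 104.4 to 170.8 against 103.1 to 164.4. The part of these differences in the results on fatty acid genes was not tested. In such bulk libraries a change in the share of a cell type and a change in RNA per nucleus cannot be told apart.

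Across the pathway, the uptake gene Slc27a1, the carboxylase gene Acacb, the uncoupling protein gene Ucp3, the trifunctional enzyme gene Hadha and the lipid droplet genes Plin5 and Pnpla2 had more RNA in each Prrx1(R1A)-/- library than in any control, and so, by a narrow margin, did Eci2. The activating enzyme gene Acsl5 and the second carboxylase gene, Acaca, had less RNA in each Prrx1(R1A)-/- library than in any control. None of the 38 passed the test, which was limma-trend on the log2 of the normalized count plus 1 with an adjusted p under 0.05 over all genes (0 of 38, against 2 of 14584 genes or 0.0137%). At an unadjusted p under 0.05, 6 were higher (6.67% of all genes were) and 1 was lower (5.25% of all genes were). The groups did not overlap for 7 higher genes (8.89% of all genes) and 2 lower genes (8.36% of all genes), together 23.7% of the 38 against 17.2% of all genes. The median log2 fold change was 0.17 with 25 of 38 above 0 (65.8%), beside a median of −0.004 and 49.7% above 0 over all genes. Without control replicate 1 the median was −0.02 and 17 of 38 lay above 0, beside 49.6% of all genes. Exonic bases are shared with a gene on the opposite strand for 11 of the 38 (Fabp3, Acsl1, Acsl5, Acsl6, Crat, Acadvl, Etfdh, Hadha, Echs1, Eci2 and Lipe) and with a gene on the same strand for 3 (Acsl3, Cpt1b and Etfb), and how reads there were assigned is not given in the sources used here.

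**Figure D1:**
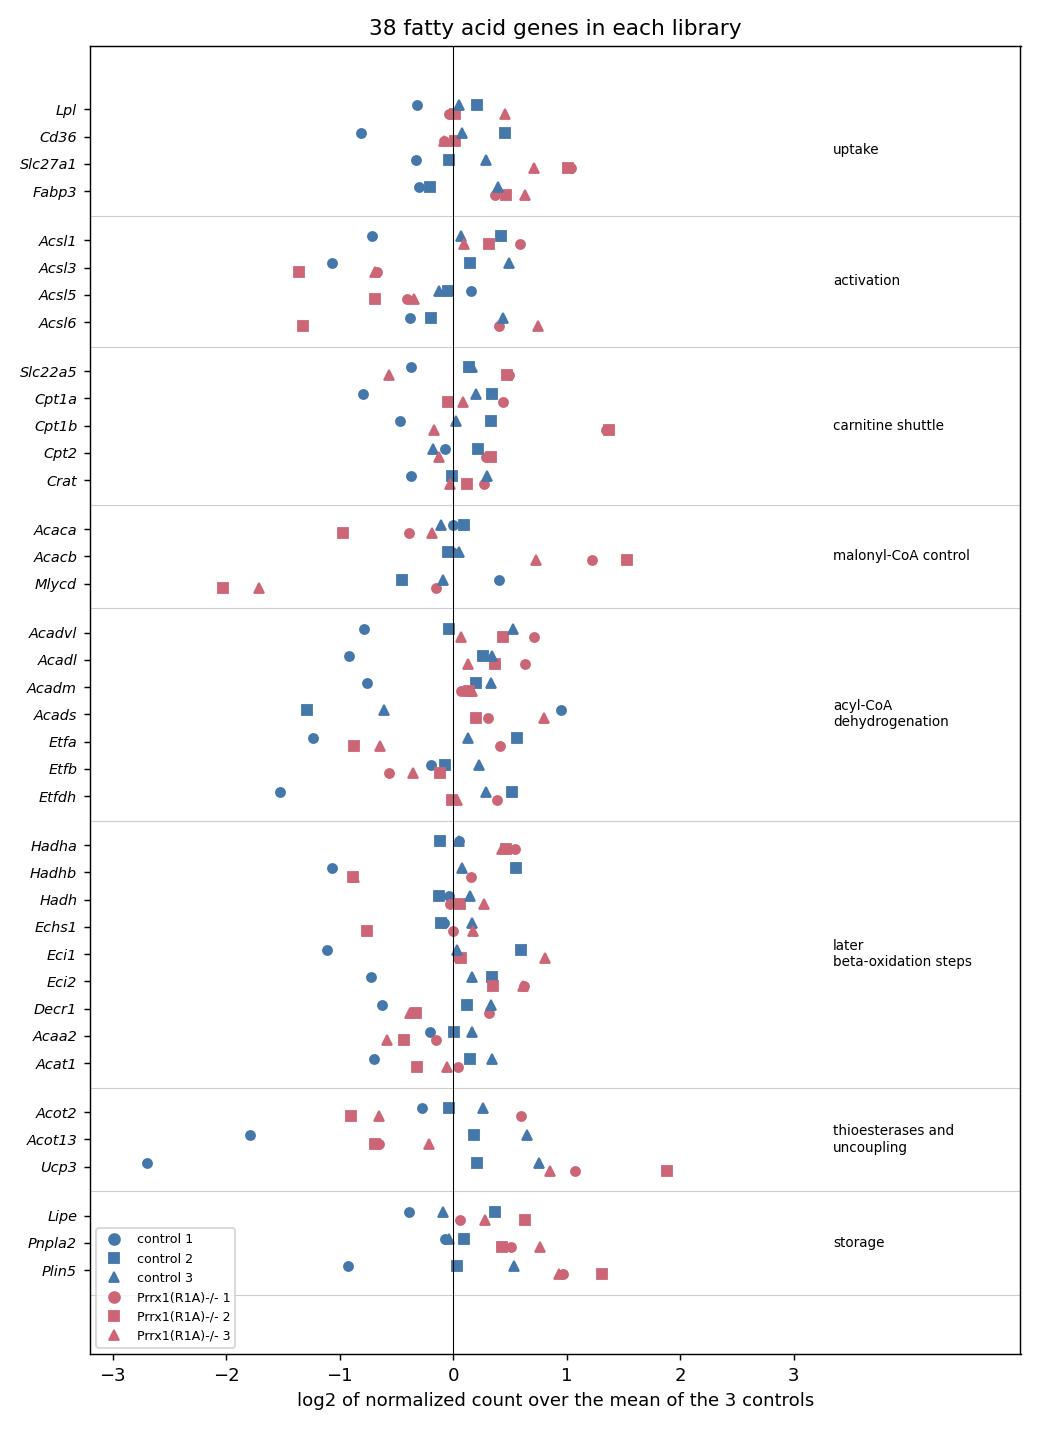
Each point is the normalized count of a gene in a library, on a log2 scale relative to the mean of the 3 controls, for the 38 genes in order of pathway step (blue, control; red, Prrx1(R1A)-/-; circles, squares and triangles, replicates 1, 2 and 3). Control replicate 1 lies farthest left in 23 of the 38 rows, while the 3 red points of Slc27a1, Acacb, Ucp3, Hadha, Plin5 and Pnpla2 all lie right of the blue ones.

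Of the 4 uptake genes, Slc27a1 had the largest difference between the groups. Slc27a1 (identifier 26457; GRCm38 chromosome 8, 71568882 to 71587302, plus strand) encodes FATP1, a fatty acid transport protein that also activates its substrate. It had 478.1, 584.9 and 734.9 normalized counts in controls, against 1235.5, 1209.5 and 982.4 in Prrx1(R1A)-/- nuclei. The lowest Prrx1(R1A)-/- value lay above the highest control value, and the mean was 1142 ± 139 (SD, n = 3) against 599.3 ± 129. On the log2 scale the difference was 0.94 ± 0.23 (SE), with limma's adjusted p at 0.17. DESeq2 on the recovered reads called it (adjusted p = 0.0269, in a test that called 1.39% of 11467 genes higher), and limma did so without control replicate 1 (0.79, adjusted p = 0.0209, where 6.10% of all genes were called higher).

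The other uptake genes overlapped between the groups. Fabp3, the cytosolic fatty acid carrier of heart muscle, had 81.8, 87.6 and 132.7 normalized counts in controls and 130.3, 139.2 and 156.7 in Prrx1(R1A)-/- nuclei (0.52 ± 0.32, adjusted p = 0.53 by limma). Only control replicate 3 reached into the Prrx1(R1A)-/- range, and Fabp3 shares exonic bases with Zcchc17 on the opposite strand. Lpl, the lipoprotein lipase that frees fatty acids from circulating triglyceride, was the most abundant of the 4 and had 1046.9, 1503.9 and 1351.1 in controls, against 1267.0, 1319.8 and 1792.0 in Prrx1(R1A)-/- nuclei. The Lpl groups overlapped, with control replicate 1 below and Prrx1(R1A)-/- replicate 3 above all values of the other group (0.17 ± 0.23, and 0.02 without control replicate 1). Cd36, the membrane fatty acid translocase, had 537.3 to 1295.7 in controls and 891.3 to 953.9 in Prrx1(R1A)-/- libraries. Its log2 fold change was 0.04 ± 0.29 with all libraries and −0.32 without control replicate 1 (−0.07 with quantile scaling), so no direction can be given for it.

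Among the 4 long-chain acyl-CoA synthetases, which bind fatty acids to coenzyme A, none passed the test. Acsl5 alone had groups that did not overlap (25.0%, against 17.2% of all genes). Acsl5, an isoform of mitochondrial and reticulum membranes that shares exonic bases with Zdhhc6 on the other strand, had 541.1, 468.9 and 443.4 normalized counts in controls against 364.8, 301.2 and 381.0. Each Prrx1(R1A)-/- library lay below each control (log2 fold change −0.47 ± 0.23, adjusted p = 0.44 by limma). Acsl1, the main synthetase of heart muscle, had 356.1, 782.7 and 611.0 in controls against 876.1, 727.1 and 623.6. Control replicate 1 was low and the other 2 controls lay close to the Prrx1(R1A)-/- values, so the log2 fold change of 0.41 ± 0.29 came to 0.09 without control replicate 1. Acsl3, an isoform of lipid droplets and the reticulum, had 26.4, 61.4 and 77.9 against 34.7, 21.6 and 34.4, which overlapped through control replicate 1 (−0.75 ± 0.51, and −1.20 without that library). Acsl6, known mainly from brain, was at 7.2 to 30.3 throughout, and its log2 fold change of 0.00 ± 0.67 rests on as few as 6 reads.

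The ratio of Acsl1 to Acsl3, which does not depend on the scaling between libraries, was 13.5, 12.7 and 7.85 in controls, against 25.2, 33.7 and 18.1 in Prrx1(R1A)-/- nuclei. The groups did not overlap, the mean log2 difference was 1.17, and a two-sided exact permutation test gave p = 0.1, its lower bound with groups of 3 (0.267 after adjustment over the 8 ratios computed). Acsl3 had 18 to 105 reads per library and shares exonic bases with Utp14b on the same strand, so this ratio is uncertain.

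None of the 5 genes of the carnitine shuttle had groups that stood apart (17.2% of all genes did). Their log2 fold changes ran from 0.15 to 0.87 (median 0.18), and 0 of the 5 had an unadjusted p under 0.05 (11.9% of all genes did). Cpt1a, the isoform best known from liver, had 290.7, 639.6 and 579.9 normalized counts in controls against 685.1, 488.3 and 534.7, with control replicate 1 again the low value (0.24 ± 0.31 with all libraries, −0.11 without it). Cpt1b, the muscle isoform, had 16.4, 28.5 and 23.0 against 57.5, 58.8 and 20.2. Of its Prrx1(R1A)-/- libraries, replicates 1 and 2 were high and replicate 3 lay within the controls (0.87 ± 0.55, adjusted p = 0.56 by limma). The values rest on 13 to 53 reads per library, and its exons overlap those of Gm44502 on the same strand, so reads could be assigned to either gene or to neither, and the low level of Cpt1b cannot be set against that of Cpt1a. The ratio of Cpt1b to Cpt1a is uncertain for the same reasons. It was 0.0563, 0.0445 and 0.0396 in controls, against 0.0840, 0.120 and 0.0378 in Prrx1(R1A)-/- nuclei (exact permutation p = 0.4).

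Crat, which transfers acetyl groups between carnitine and coenzyme A, was the most abundant of the 5 by count, at 650.5, 838.1 and 1037.4 in controls against 1015.1, 917.9 and 824.7. The groups overlapped (0.15 ± 0.23, and −0.03 without control replicate 1), and Crat shares exonic bases with Dolpp1 on the other strand. Cpt2, which returns the acyl group to coenzyme A at the inner membrane, had 133.5 to 176.0 against 138.5 to 190.8 (0.18 ± 0.28), and Slc22a5, the carnitine importer OCTN2, had 117.0 to 169.1 against 102.1 to 211.7 (0.15 ± 0.35, and −0.02 without control replicate 1). Both had overlapping groups.

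The 3 genes of malonyl-CoA synthesis and removal differed in direction, and Acacb had the smallest p of the 38. Acacb (identifier 100705; GRCm38 chromosome 5, 114146535 to 114250761, plus strand) encodes acetyl-CoA carboxylase 2, the isoform at the mitochondrial surface whose malonyl-CoA inhibits CPT1. It had 1301.1, 1271.0 and 1360.0 normalized counts in controls, against 3061.6, 3784.3 and 2182.1 in Prrx1(R1A)-/- nuclei. The controls lay close together and each Prrx1(R1A)-/- library was well above them, with means of 1311 ± 45.3 and 3009 ± 802 (SD, n = 3), a ratio of 2.30. On the log2 scale this was 1.16 ± 0.23, with limma's adjusted p = 0.0963 above the threshold. It was 0.97 to 1.38 under 19 alternatives, with adjusted p from 1.16e-05 to 0.564. DESeq2 called it with all libraries (adjusted p = 0.00126), and limma called it without control replicate 1 (1.16, adjusted p = 0.00758). A fit with ribosomal RNA as a covariate also called it, with 2.99% of all genes. Leaving out any other library, or using edgeR on the recovered reads of all 6, did not give a call.

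Mlycd (identifier 56690; GRCm38 chromosome 8, 119394878 to 119411102, plus strand), the decarboxylase that removes malonyl-CoA, had 188.7, 104.1 and 133.5 normalized counts in controls, against 128.1, 34.8 and 43.5 in Prrx1(R1A)-/- nuclei. Replicates 2 and 3 of Prrx1(R1A)-/- were low, while replicate 1 lay within the control range. It was the 1 lower gene with an unadjusted p under 0.05 (log2 fold change −1.24 ± 0.48, adjusted p = 0.36 by limma), and the difference ran from −0.88 without Prrx1(R1A)-/- replicate 2 to −1.80 without Prrx1(R1A)-/- replicate 1. Acaca, which encodes the cytosolic carboxylase used for fatty acid synthesis, had 166.1, 178.3 and 155.0 in controls against 127.0, 85.2 and 146.6. Its groups did not overlap, but the nearest values differed by less than the spread within either group (−0.51 ± 0.31, adjusted p = 0.53 by limma).

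Within libraries, the ratio of Mlycd to Acacb was 0.145, 0.0819 and 0.0981 in controls, against 0.0418, 0.00919 and 0.0199 in Prrx1(R1A)-/- nuclei. Each Prrx1(R1A)-/- ratio was below each control ratio, by a mean of −2.42 on the log2 scale. The ratio of Acacb to Acaca was 7.83, 7.13 and 8.78 in controls, against 24.1, 44.4 and 14.9 in Prrx1(R1A)-/- nuclei, with a mean log2 difference of 1.68 and no overlap either. For both ratios the exact permutation p was 0.1, the smallest possible, and 0.267 after adjustment over the 8 ratios. Acacb alone was higher and Acaca alone was lower without overlap, so their ratio had to separate. Its p therefore adds nothing to the values of these genes. The groups of Mlycd alone overlapped, and its ratio contains Acacb, so that ratio is not a result apart from the one on Acacb. Counted per kilobase of exon, Acacb was at 136.1 in controls and 312.4 in Prrx1(R1A)-/- nuclei while Acaca was lower than that in both groups, at 9.75 in controls.

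**Figure D2:**
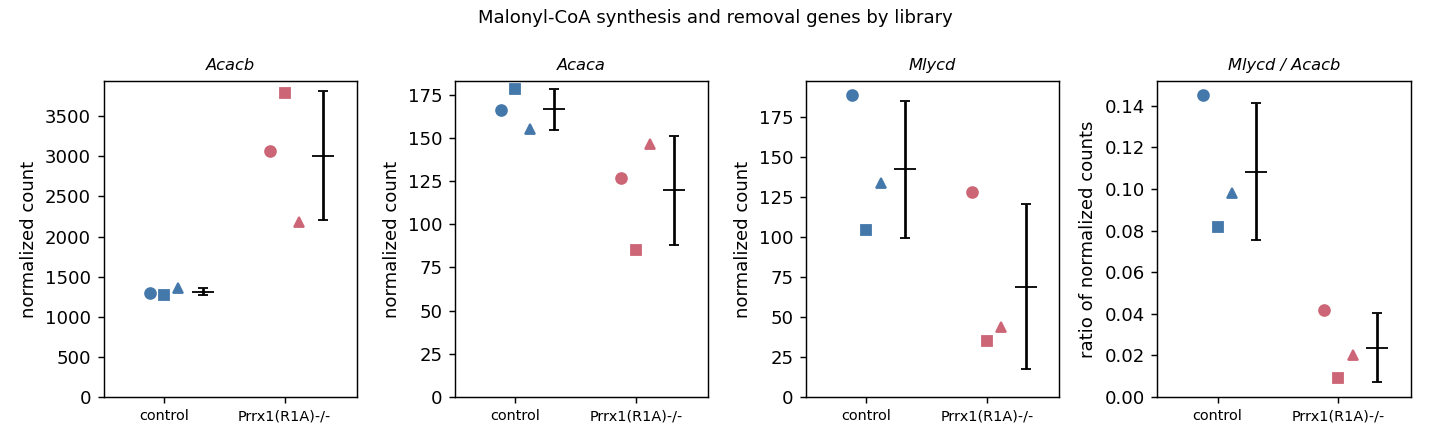
Normalized counts of Acacb, Acaca and Mlycd and the ratio of Mlycd to Acacb in the 3 control (blue) and 3 Prrx1(R1A)-/- (red) libraries; circles, squares and triangles are replicates 1, 2 and 3, and bars beside the points give the mean ± SD. Acacb is at 1271.0 to 1360.0 in controls and 2182.1 to 3784.3 in Prrx1(R1A)-/- libraries, and the ratio of Mlycd to Acacb is at most 0.0418 in the latter.

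Promoter windows were available for 31 of the 38 genes (38 windows, since some genes have several starts), from 250 bases before to 50 after a RefSeq start in GRCm38.p6. The windows of Acacb and Mlycd are shown because these genes make and remove malonyl-CoA and their means differed in opposite directions, that of Plin5 as an example from the storage genes, and that of Hadha because it is shared with Hadhb, its partner subunit, which is described further on. Capitals mark 3 motifs, each searched on both strands, and no marked matches overlap in the 4 windows shown. The core bound by nuclear receptors has the letters AGGTCA. The GC box, known as a site of Sp1 factors, was searched as GGGCGG. The TATA box, which places the start of transcription, was searched as TATAAA.
Acacb, chr5:114165268-114165567, plus strand: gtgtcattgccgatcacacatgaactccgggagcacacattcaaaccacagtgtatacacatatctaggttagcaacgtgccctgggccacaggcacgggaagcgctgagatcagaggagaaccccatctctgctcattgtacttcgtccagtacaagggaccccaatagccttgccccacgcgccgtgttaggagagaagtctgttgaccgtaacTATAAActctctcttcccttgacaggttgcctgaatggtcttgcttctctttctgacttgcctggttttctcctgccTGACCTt
Mlycd, chr8:119394644-119394943, plus strand: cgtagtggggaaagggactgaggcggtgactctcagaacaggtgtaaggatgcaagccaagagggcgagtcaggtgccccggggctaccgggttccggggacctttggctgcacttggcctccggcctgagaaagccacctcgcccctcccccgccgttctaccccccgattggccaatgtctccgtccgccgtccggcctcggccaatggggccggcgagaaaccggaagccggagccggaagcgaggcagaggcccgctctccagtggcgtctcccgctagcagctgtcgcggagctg
Plin5, chr17:56117499-56117798, minus strand: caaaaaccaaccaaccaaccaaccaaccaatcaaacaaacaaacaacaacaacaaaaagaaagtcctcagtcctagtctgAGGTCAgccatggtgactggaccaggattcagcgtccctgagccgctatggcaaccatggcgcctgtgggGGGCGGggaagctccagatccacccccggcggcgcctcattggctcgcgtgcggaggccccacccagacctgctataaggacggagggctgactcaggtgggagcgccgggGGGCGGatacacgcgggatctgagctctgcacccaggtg
Hadha, chr5:30154931-30155230, minus strand: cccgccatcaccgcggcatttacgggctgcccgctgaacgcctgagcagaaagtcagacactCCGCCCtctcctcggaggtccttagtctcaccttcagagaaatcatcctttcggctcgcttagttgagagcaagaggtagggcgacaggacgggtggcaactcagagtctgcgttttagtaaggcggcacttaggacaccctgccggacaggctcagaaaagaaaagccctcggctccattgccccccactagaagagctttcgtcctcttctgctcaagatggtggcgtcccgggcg
The Acacb window holds the 1 TATAAA match among the member windows, 34 bases before the start (13.6% of all 32851 windows hold one), and an AGGTCA match, read on the other strand, 43 bases after it. Its start lies 18983 bases inside the annotated gene, so it is an internal start. The Mlycd window holds none of the 3 motifs. AGGTCA was found in 10 of 38 member windows (26.3%, against 16.3% of all windows) and GGGCGG in 25 (65.8%, against 35.7%). The DR1 element, a direct repeat of that core with 1 base between and the kind bound by PPAR receptors, was in 0 member windows and in 0.0396% of all windows. These matches describe letters in a window, not bound sites.

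The acyl-CoA dehydrogenases, which take the first electrons from fatty acids of different chain length, and their electron acceptors had 0 of 7 genes with groups that stood apart (17.2% of all genes did). Their median log2 fold change was 0.38, with 5 of 7 above 0 (71.4%, against 49.7% of all genes). None had an unadjusted p under 0.05, as 11.9% of all genes did. Acadvl, for very long chains, had 324.6, 545.2 and 802.3 normalized counts in controls, against 914.1, 758.3 and 585.2 in Prrx1(R1A)-/- nuclei. Its controls spread over more than the difference between groups (0.50 ± 0.32, adjusted p = 0.55 by limma; 0.16 without control replicate 1). Acadvl also shares exonic bases with Dvl2 on the other strand. Acadl, for long chains, had 166.1, 375.2 and 396.7 against 484.2, 403.2 and 341.6, and Acadm, for medium chains, had 134.6, 260.6 and 286.2 against 238.8, 250.8 and 255.7. In both, control replicate 1 was the low value and the other controls lay among or above the Prrx1(R1A)-/- values, with log2 fold changes of 0.48 ± 0.34 and 0.20 ± 0.31 that became 0.07 and −0.14 without that library. The ratio of Acadl to Acadvl was 0.494 to 0.688 in controls and 0.530 to 0.584 in Prrx1(R1A)-/- libraries (exact permutation p = 1).

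Acads, for short chains, had 127.1, 27.0 and 43.0 in controls against 81.4, 75.6 and 114.2. Control replicate 1 was here the highest library, and without it the log2 fold change went from 0.74 ± 0.52 to 1.36 (adjusted p = 0.0578 by limma and 0.0224 by DESeq2). Etfa and Etfb, the subunits of the electron transfer flavoprotein, had 47.8 to 165.5 against 61.2 to 149.8 (−0.19 ± 0.50, and −0.71 without control replicate 1) and 241.6 to 324.1 against 186.7 to 254.4 (−0.33 ± 0.26). Etfdh, which passes those electrons on to ubiquinone, had 93.1, 385.0 and 327.8 against 350.7, 267.6 and 274.9, and its log2 fold change changed sign, from 0.38 ± 0.45 to −0.27, without control replicate 1.

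In the later steps of beta-oxidation, Hadha and Eci2 had groups that did not overlap (22.2% of the 9 genes, against 17.2% of all genes). With these included, 4 of the 9 had a log2 fold change above 0 (44.4%, against 49.7% of all genes), and the median was −0.04. Hadha (identifier 97212; GRCm38 chromosome 5, 30118304 to 30155162, minus strand) encodes the alpha subunit of the mitochondrial trifunctional enzyme, which carries out the last 3 reactions on long chains. It had 752.5, 671.1 and 755.6 normalized counts in controls, against 1060.7, 1005.5 and 979.4 in Prrx1(R1A)-/- nuclei. Both groups were tight and did not overlap, with means of 726.4 ± 47.9 and 1015 ± 41.5 (SD, n = 3). The difference was 0.48 ± 0.20 on the log2 scale (limma's adjusted p = 0.37), and DESeq2 called it without control replicate 1 (adjusted p = 0.0491, where 10.5% of 12106 genes were called higher). Hadha shares exonic bases with Garem2 on the other strand.

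Hadhb, the beta subunit of the same enzyme, is transcribed from the same region in the opposite direction: the RefSeq starts are 273 bases apart, and the 2 promoter windows share 228 bases of the Hadha sequence above. Hadhb had 39.0, 119.8 and 86.0 normalized counts in controls, against 91.2, 44.4 and 44.5 in Prrx1(R1A)-/- nuclei. The groups overlapped, with a difference of −0.38 ± 0.49 (adjusted p = 0.79 by limma) that was −0.83 without control replicate 1. The ratio of Hadha to Hadhb was 19.3, 5.60 and 8.78 in controls, against 11.6, 22.6 and 22.0 in Prrx1(R1A)-/- nuclei, which overlapped through control replicate 1 alone (mean log2 difference 0.87, exact permutation p = 0.2). Per kilobase of exon, Hadha was at 83.2 and Hadhb at 12.4 in control nuclei. These levels depend on the annotation, since the lengths used, 8730 and 6595 bases, cover all annotated exons of each gene.

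Eci2, an enoyl-CoA isomerase for unsaturated fatty acids, had 133.4, 280.1 and 247.7 in controls, against 339.8, 280.8 and 338.6 in Prrx1(R1A)-/- nuclei. The groups were separate by less than 1 normalized count, between control replicate 2 and Prrx1(R1A)-/- replicate 2 (0.60 ± 0.31, adjusted p = 0.46 by limma; 0.27 without control replicate 1). Eci1, the related isomerase, had 36.5 to 119.1 against 81.4 to 138.5 (0.46 ± 0.46; −0.01 without control replicate 1), and Decr1, which reduces double bonds, had 95.6 to 186.1 against 113.2 to 183.5 (−0.08 ± 0.35; −0.36 without it). Both overlapped.

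Echs1, the short-chain hydratase, had 120.6 to 146.1 against 76.8 to 146.6 (−0.19 ± 0.33), and Hadh, the short-chain hydroxyacyl-CoA dehydrogenase, had 151.3 to 183.2 against 161.8 to 199.1 (0.11 ± 0.27). Of the thiolases, Acaa2, which cleaves 3-ketoacyl-CoA, had 283.1, 325.8 and 365.6 against 292.0, 241.2 and 217.3, with only Prrx1(R1A)-/- replicate 1 within the control range (−0.38 ± 0.25, adjusted p = 0.57 by limma). Acat1, the acetoacetyl-CoA thiolase, had 354.8, 638.1 and 730.4 against 591.7, 460.7 and 553.9 (−0.04 ± 0.28; −0.36 without control replicate 1).

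Ucp3, an uncoupling protein of the inner membrane in muscle that rises with fatty acid supply, had the largest fold change of the 38 and also the largest spread. It had 11.3, 84.6 and 123.8 normalized counts in controls, against 154.2, 271.2 and 132.4 in Prrx1(R1A)-/- nuclei. The groups did not overlap, but control replicate 1, at 9 reads, lay far below the other controls. On the log2 scale the groups differed by 1.81 ± 0.71 (limma's adjusted p = 0.36) and 0.78 without that library. The mitochondrial thioesterase gene Acot2, which has close paralogs, had 62.9, 74.1 and 91.2 against 115.1, 40.8 and 48.5 (−0.29 ± 0.44), and the thioesterase gene Acot13 had 25.2, 98.9 and 136.4 against 55.4, 54.0 and 74.8 (−0.20 ± 0.56; −0.93 without control replicate 1). Both overlapped.

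All 3 genes of stored triglyceride had a higher mean in Prrx1(R1A)-/- nuclei, with a median log2 fold change of 0.57. The groups of 2 of the 3 did not overlap, both on the higher side, where 8.89% of all genes tested lay. Pnpla2, the triglyceride lipase ATGL, had 509.6, 570.7 and 521.3 normalized counts in controls, against 762.1, 719.9 and 906.6 in Prrx1(R1A)-/- nuclei. The controls were tight and each Prrx1(R1A)-/- library was above them (533.9 ± 32.4 against 796.2 ± 97.9, SD, n = 3; log2 fold change 0.57 ± 0.21, adjusted p = 0.34 by limma). Without control replicate 1 it was 0.54.

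Plin5, a lipid droplet coat protein that ties droplets to mitochondria, had 34.0, 65.9 and 93.4 against 125.9, 159.6 and 123.3. Each Prrx1(R1A)-/- library again lay above each control, and the difference on the log2 scale was 1.17 ± 0.40 (adjusted p = 0.31 by limma) with all libraries and 0.78 without control replicate 1. Lipe, the hormone-sensitive lipase, had 240.3, 405.9 and 294.4 against 326.8, 487.1 and 381.0, which overlapped (0.36 ± 0.27, and 0.18 without control replicate 1). The ratio of Pnpla2 to Lipe was 1.41 to 2.12 in controls and 1.48 to 2.38 in Prrx1(R1A)-/- libraries (exact permutation p = 0.5). Lipe, Pnpla2 and Lpl are also genes of fat cells. The fat cell markers Adipoq, Plin1 and Pck1 had at most 23.2, 73.4 and 131.8 normalized counts in any library, and Adipoq was at 0 in control replicate 1 and Prrx1(R1A)-/- replicate 1. The sum of 8 adipocyte markers was 307.0 to 1178 in controls and 291.0 to 418.7 in Prrx1(R1A)-/- libraries, most of it Fabp4, which endothelial cells also express. Adipoq, Plin1, Cfd, Pck1 and Fabp4 were highest in control replicate 2, while Cidec, Lep and Retn were highest in other libraries. The 5 brown adipocyte markers summed to 34.9 to 73.4 against 21.6 to 49.9, with Ucp1 at 0 in control replicates 1 and 3 and Prrx1(R1A)-/- replicate 2.

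**Figure D3:**
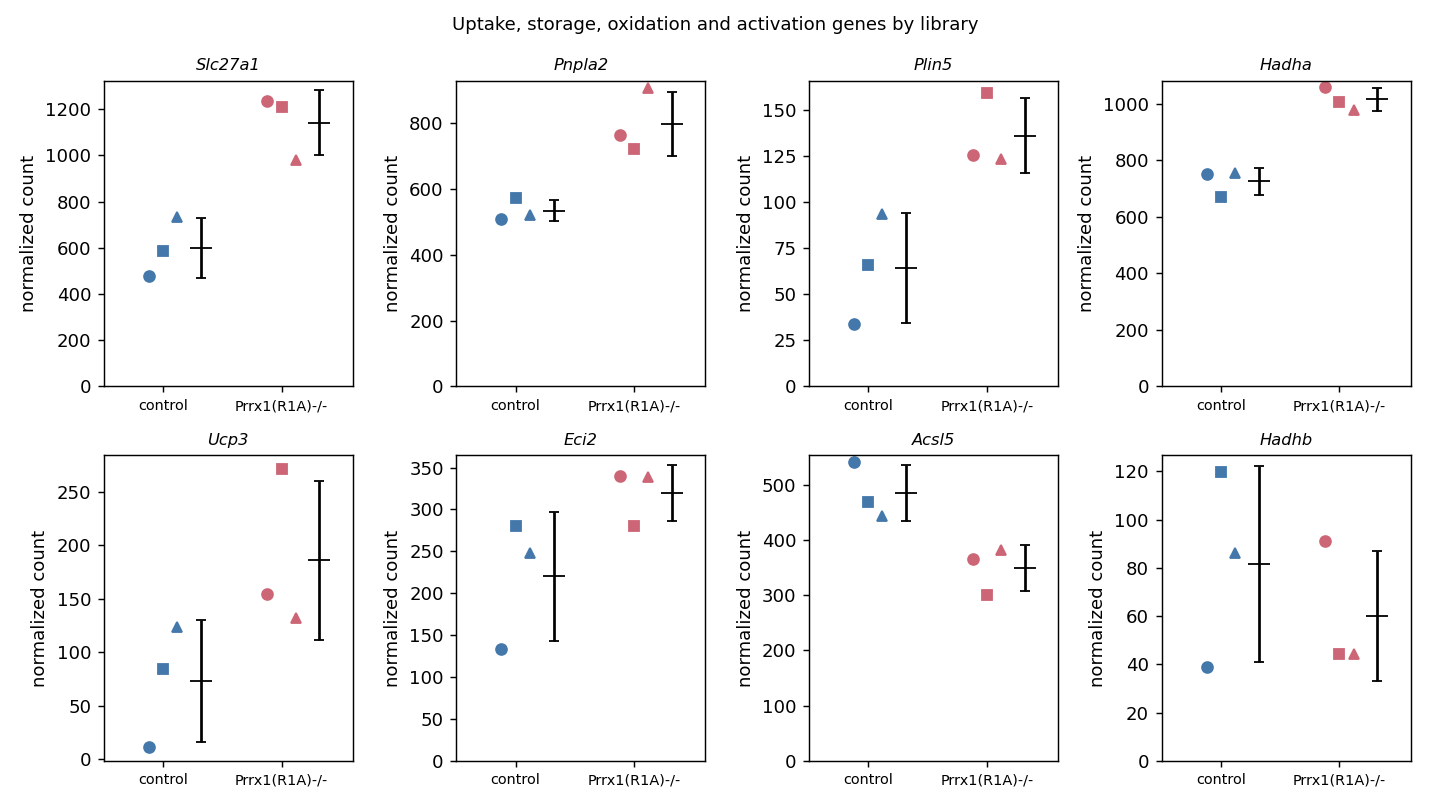
Normalized counts of the 6 genes of uptake, storage, oxidation and uncoupling whose Prrx1(R1A)-/- values (red) all lay above the controls (blue), of Acsl5, whose values all lay below, and of Hadhb, the partner of Hadha; symbols are replicates 1 (circle), 2 (square) and 3 (triangle), and bars give the mean ± SD. Hadha runs from 671.1 to 755.6 in controls and from 979.4 to 1060.7 in Prrx1(R1A)-/- libraries, while the Hadhb groups overlap.

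Per kilobase of exon, control levels of the 38 genes ran from 1.82 normalized counts for Acsl6 to 263.1 for Cd36. Next to Cd36 came Etfb at 237.3, Acaa2 at 214.3, Acadvl at 207.5, Pnpla2 at 176.8, Crat at 156.3 and Acadl at 156.0. The controls of neighbours in this order overlapped once their spread is counted, since Cd36 alone varied from 537.3 to 1295.7 normalized counts. At the low end, beside Acsl6, stood Acaca at 9.75 and Hadhb at 12.4. Cpt1b and Acsl3 were listed at 6.70 and 12.7 but their exons overlap those of same-strand genes, so their levels, like that of Etfb, are uncertain and have no sure place in this order. The levels of Acsl6, Acadvl and Crat may include reads of genes on the other strand. In Prrx1(R1A)-/- nuclei Acacb, at 312.4, had a higher mean than Cd36, at 254.2, with ranges that overlapped.

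The place of control replicate 1 touches many of these values. The median of the 38 genes, taken as the deviation of log2 counts from the mean of the 6 libraries, was −0.53 in control replicate 1, 0.13 and 0.17 in control replicates 2 and 3, and 0.27, 0.07 and 0.06 in Prrx1(R1A)-/- replicates 1 to 3. So the other 2 controls lay within the range of the Prrx1(R1A)-/- libraries. The storage genes differed from this: their medians were −0.53, −0.19 and −0.24 in controls, against 0.23, 0.49 and 0.45 in Prrx1(R1A)-/- nuclei, without overlap. The uptake genes came close to this, with a narrow overlap between 0.071 in control replicate 3 and 0.064 in Prrx1(R1A)-/- replicate 1. The cardiomyocyte markers were also lowest in control replicate 1, with −1.13 there, −0.50 and 0.14 in the other controls and 0.36 to 0.59 in Prrx1(R1A)-/- libraries. Without control replicate 1, the groups did not overlap for 8 higher genes (22.2% of all genes) and for 9 lower genes (21.3% of all genes). By an adjusted p under 0.05, limma then called 2 of the 38 (Acacb and Slc27a1, both higher) and 9.16% of all genes (6.10% higher and 3.06% lower). The same 2 were called by edgeR, with 9.02% of all genes (5.68% higher and 3.34% lower). DESeq2 called 4 (Acacb, Slc27a1, Acads and Hadha, all higher) and 16.6% of the 12106 genes to which it gave an adjusted p (10.5% higher and 6.09% lower). With all 6 libraries DESeq2 called 2 of the 38, against 2.13% of the 11467 genes with an adjusted p (0.741% lower). It gave no adjusted p to Acsl6 in either fit, nor to Cpt1b with all 6 libraries. The 8 genes that did not overlap on the higher side were the 7 named at the outset and Acads, and the 9 were Acsl5, Acaca, Cd36, Acsl3, Acadm, Etfb, Acaa2, Acat1 and Acot13.

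**Figure D4:**
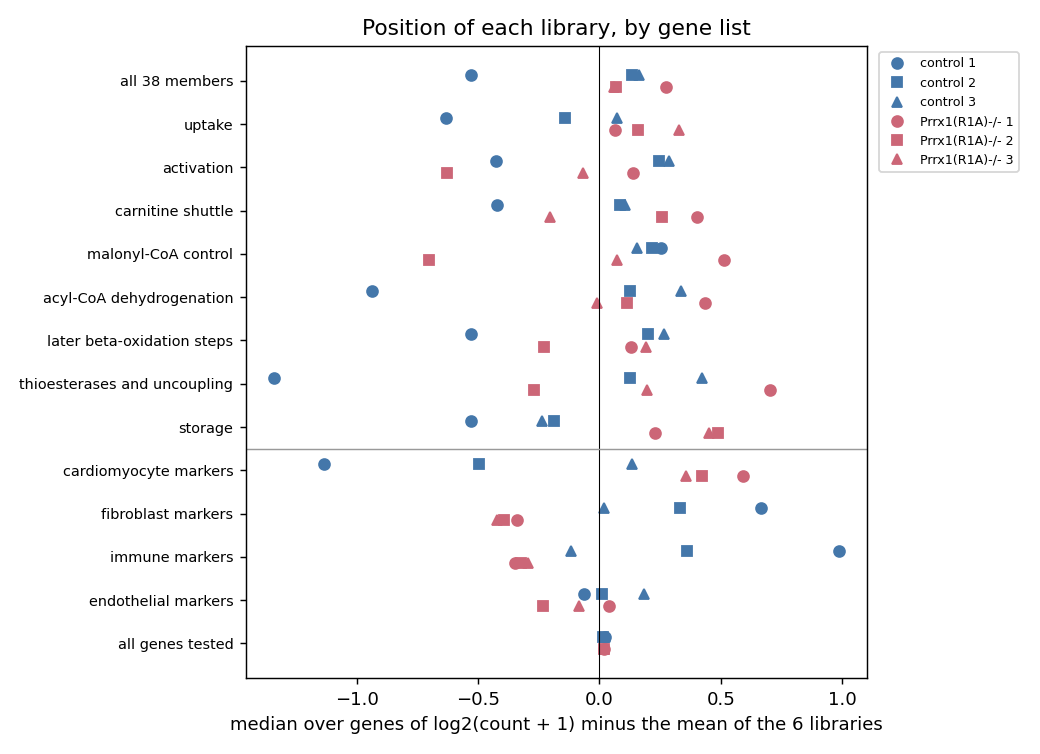
For each gene list, the median over its tested genes of log2(normalized count + 1) minus the mean of the 6 libraries, by library (blue, control; red, Prrx1(R1A)-/-; symbols are replicates). Control replicate 1 lies lowest for the 38 genes (−0.53) and for cardiomyocyte markers (−1.13) and highest for fibroblast (0.67) and immune markers (0.99). Among the 8 steps of the pathway only the storage genes have red and blue points that do not overlap. Those of the uptake genes overlap narrowly (0.071 in control replicate 3 and 0.064 in Prrx1(R1A)-/- replicate 1).

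**Figure D5:**
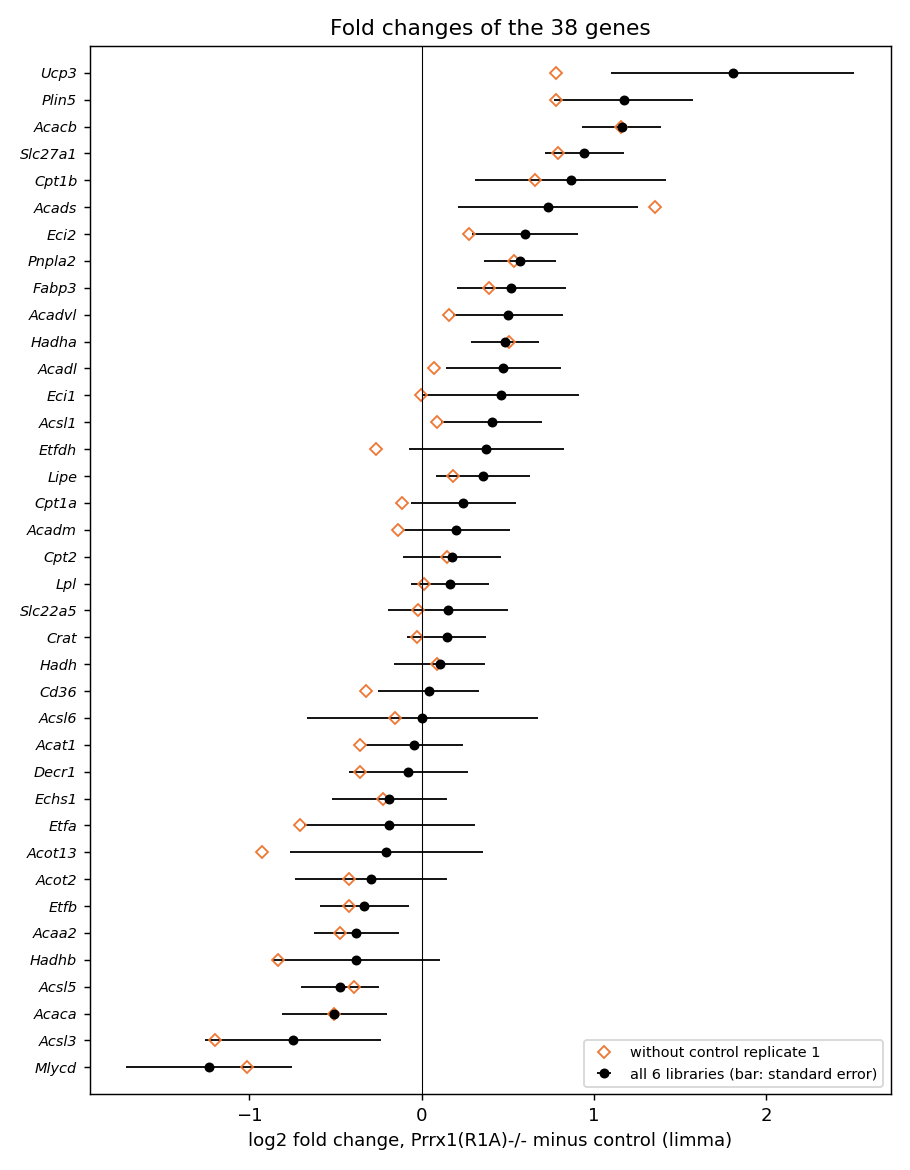
Log2 fold changes of the 38 genes, Prrx1(R1A)-/- minus control, in the limma fit of all 6 libraries (black, with the standard error) and without control replicate 1 (orange). Acacb, Hadha and Pnpla2 hardly move, at 1.16, 0.48 and 0.57 with all libraries and 1.16, 0.51 and 0.54 without that control. In all, 8 genes pass from above to below 0: Etfdh, Cpt1a, Acadm, Cd36, Acsl6, Slc22a5, Crat and Eci1.

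Other genes of fatty acid metabolism, 82 on a list that holds none of the 38, had 73 tested. Of these, 38 had a fold change above 0 and the median was 0.05 (log2), none passed the test (0 by limma), 3 were higher and 1 was lower at an unadjusted p under 0.05 (5.48% of the 73, against 11.9% of all genes). The groups did not overlap for 5 higher and 2 lower genes (9.59%, against 17.2% of all genes). Plin4, another droplet coat protein gene, had 848.1, 2204.2 and 2533.8 normalized counts in controls against 4906.1, 6752.8 and 3195.8 in Prrx1(R1A)-/- libraries, with no overlap (1.49 ± 0.39, adjusted p = 0.20 by limma and 0.0197 by DESeq2; 1.00 without control replicate 1; it shares exonic bases with Hdgfl2 on the other strand). Acot7, a cytosolic thioesterase, had 105.7, 92.1 and 143.1 against 195.4, 195.6 and 235.5 (0.89 ± 0.29). Its groups did not overlap either.

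Acsl4, the synthetase that prefers arachidonic acid, had 187.5, 480.1 and 345.6 against 159.6, 174.0 and 192.0 (−0.85 ± 0.34). Control replicate 1 lay within the Prrx1(R1A)-/- range, and without it the difference was −1.22 (adjusted p = 0.0111 by limma, where 3.06% of all genes were called lower). Fabp4, also counted above among the adipocyte markers, was at −0.93 ± 0.43 with overlapping groups. Without control replicate 1 it was at −1.55 (adjusted p = 0.00401 by limma). Vldlr, a lipoprotein receptor, had 1318.7, 10377.6 and 6907.4 against 20945.7, 16460.8 and 5995.4, which overlapped through replicate 3 of Prrx1(R1A)-/- (1.48 ± 0.66, adjusted p = 0.41 by limma; 0.59 without control replicate 1). Of the other storage and lipolysis genes, 10 of 16 lay above 0 (median 0.11). Their groups did not overlap for 3 higher genes and 1 lower gene (25.0%, against 17.2% of all genes). Of the peroxisomal oxidation genes, 4 of 12 lay above 0 (median −0.11).

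The authors' deposited table, which lists 1900 genes with a p under 0.05, holds 7 of the 38. In the authors' deposited table Acacb had a log2 fold change of 1.08 (adjusted p = 0.00143) and Slc27a1 0.83 (adjusted p = 0.0323), and these are 2 of its 227 genes with an adjusted p under 0.05. Plin5 (0.83), Ucp3 (0.88), Pnpla2 (0.52), Hadha (0.44) and Mlycd (−0.75) were the others in the authors' deposited table, with adjusted p from 0.208 to 0.345.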

How the data were processed

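Nuclear RNA of 6 mouse atrial libraries was analysed, 3 per genotype, 1 animal each. Per the labels, library preparation used the Ovation RNA-seq System V2; the submitters' processing notes name STAR, DESeq2 and the build mm10; versions, read counter, annotation and strand setting are not stated there. Deposited signal values are normalized counts. Within 0.01 reads, and with 1 exception, the values of a library are whole multiples of its smallest value (99.9944% or more of the values above 0 in each library), so whole read counts were recovered from the deposited table by division; the exception is Prrx1 in control replicate 3, rounded for the count tests. A further 847 entries without a value were left out. The authors' deposited comparison gives log2 fold changes, p-values, their −log10 and a Wald score.

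The test was limma-trend (limma 3.58.1, R 4.3.3) on log2(normalized count + 1), two-sided, Benjamini-Hochberg adjusted over 14584 genes; alternatives, run on recovered reads, were edgeR 4.0.16 and DESeq2 1.42.0, which called 0 and 244 genes. Others were pseudocounts, filters, scalings, a replicate block, a ribosomal RNA covariate and leaving out each library. The fit was tested on simulated data. Errors of fold changes are standard errors. The added 1 tends to shrink fold changes of low genes, but they are not always understated on this scale. That of Ucp3 was 1.81 by limma and 1.33 by DESeq2. Ratios within a library were tested by exact permutation over the 20 labelings. A count of 0 allows up to 3 reads, 2.22 to 3.77 normalized counts, for counting error only; no member was at 0. Same-numbered libraries did not deviate together (correlations −0.11, −0.02 and −0.09), so they were not paired. Gene positions, exon lengths and overlaps are those of GENCODE M21 (GRCm38). Exon length counts each base in any annotated exon of a gene, so levels per kilobase and their order depend on the annotation. Members and lists were chosen with earlier results of these data known. Every member is named; values in every library are given for the 2 members of each step with the smallest p, the most abundant one and those whose groups did not overlap, and from the other pathway genes for the 4 with the smallest p and a mean of at least 100. Plots were drawn with matplotlib 3.10.9.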

Additional observations from a re-analysis of the deposited data

How the results depend on the processing

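Limma called 2 genes, none of them among the 38, with all libraries. Of the 38, 0 were called under pseudocounts of 0.5 and 5, other filters and other scalings. The count of genes called was 0 with quantile scaling, 0 with edgeR and 244 with DESeq2 (2 of the 38, Acacb and Slc27a1). With the ribosomal RNA covariate it was 436, or 2.99% of all genes (6 of the 38, which add Ucp3, Acsl1, Etfdh and Plin5). Acsl1 and Etfdh had log2 fold changes of 0.79 and 1.05 with that covariate, but 0.09 and −0.27 without control replicate 1. The count was 0 to 1312 when a library was left out (0 to 2 of the 38). The high end was reached without control replicate 1, and leaving out any other library gave 0 genes. Without control replicate 1, in fits chosen after seeing the data, DESeq2 called 2007 genes (4 of the 38) and edgeR 1293 (2 of the 38). Fitted with the replicate number as a block, limma called 0 genes and 0 of the 38; same-numbered libraries did not deviate together, so the block has no basis in the design. The cause of these differences was not tested.

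The direction reversed for 14 of the 38. It did so for Cd36 at −0.072 with quantile scaling, −0.058 with edgeR and −0.051 with DESeq2, and for Acsl6 at −0.002 with a pseudocount of 0.5. With the ribosomal RNA covariate it did so for Etfa (0.43), Hadhb (0.18), Decr1 (0.23), Acat1 (0.25) and Acot13 (0.42). Without control replicate 1, DESeq2 and edgeR reversed Cd36 (−0.34 and −0.34), Cpt1a (−0.10 and −0.11), Crat (−0.034 and −0.041), Acadm (−0.14 and −0.15) and Etfdh (−0.26 and −0.27). Leaving out 1 library each gave, in limma, Cd36 −0.32 to 0.32, Acsl6 −0.37 to 0.59, Slc22a5 −0.022 to 0.50, Cpt1a −0.11 to 0.46, Crat −0.026 to 0.31, Acadm −0.14 to 0.40, Etfa −0.71 to 0.18, Etfdh −0.27 to 0.75, Echs1 −0.37 to 0.093, Eci1 −0.005 to 0.83, Decr1 −0.36 to 0.12, Acat1 −0.36 to 0.16 and Acot13 −0.93 to 0.27. The ratios of Etfa to Etfb (−0.36 to 0.55) and Acadl to Acadvl (−0.12 to 0.12) reversed as well.

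With 3 libraries a group, the exact test cannot fall below 0.1. Genes with few reads, such as Acsl6 and Cpt1b, are the least precise.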
